A study of Mus musculus with 8 samples.

Results

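The 9 genes described here encode subunits of the polycomb repressive complexes. Ezh1, Ezh2, Eed, Suz12 and Jarid2 belong to complex 2 (PRC2), and Rnf2, Bmi1, Cbx2 and Cbx7 belong to complex 1 (PRC1). They were taken by symbol from a list of complex subunits and not by a rule on their measured values. Earlier results of these data were known when the list was chosen. All 9 were found among the 24538 genes of the count files and among the 24453 genes of the FPKM table. RNA was sequenced from 4 groups of sorted skin cells of newborn mice (postnatal day 0), with 2 libraries in each group and 8 in all. Merkel cells and IFE cells were each taken from paw skin and from back skin. The genotype of all of them was Atoh1-GFP, so the IFE cells carried the same reporter as the Merkel cells and no group lacked it. Merkel cells, the touch receptor cells of the epidermis, were sorted as GFP(+), EpCAM(+) and Sca1(-). The IFE cells, epidermal cells whose abbreviation the labels do not spell out, were sorted as GFP(-), EpCAM(+) and Sca1(+). Whether replicate libraries came from separate mice or from pools is not in the labels, so a p-value here measures the spread between libraries alone, and that spread may be technical.

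PRC2 places methyl groups on lysine 27 of histone H3 through its catalytic subunit EZH2 or EZH1, with EED and SUZ12 as obligate partners. JARID2 is an accessory subunit that helps to recruit PRC2 to its targets. PRC1 attaches ubiquitin to histone H2A through RING1 or RNF2, which works in a pair with a PCGF protein such as BMI1, and its canonical forms carry a CBX protein that reads the mark set by PRC2. In mouse epidermis, loss of PRC2 in progenitors is known to allow Merkel cells to form in excess, and Sox2, Isl1 and Atoh1, factors of Merkel cell identity, are among the genes that PRC2 holds silent there.

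Total counts ran between 11139306 and 26195076 per library. The defining markers of the sort followed the labels: Atoh1 lay between 178 and 304 CPM (read counts over the TMM-scaled library total) in the 4 Merkel libraries and between 0.0815 and 0.458 CPM in the 4 IFE libraries, and Krt20, a keratin of Merkel cells, between 361 and 982 CPM in Merkel and 0.285 and 0.543 CPM in IFE libraries. Krt5 and Krt14, keratins of basal epidermis, lay at 419 to 1360 and 106 to 424 CPM in Merkel libraries, and at 13900 to 26600 and 2980 to 6030 CPM in IFE libraries. Library 1 of paw Merkel stood apart from the other Merkel libraries on Krt1 and Krt10, keratins of suprabasal epidermis. Krt1 was at 2580 CPM and Krt10 at 2540 CPM there, against 142 to 936 CPM for both genes in the other 3 Merkel libraries and 2200 to 5570 CPM in the IFE libraries. The summed level of 8 epidermal markers was 8120 CPM in that library, 1950 to 2830 CPM in the other Merkel libraries and 30700 to 46300 CPM in IFE libraries. Library 2 of back IFE stood apart from its label: over the Hox genes, which record position along the body, it correlated at 0.753 and 0.883 with the paw IFE libraries and at -0.0752 with back IFE library 1. Replicates were least alike in paw Merkel cells, where the median gene differed between libraries by 1.00 on the log2 scale, while the figure was 0.74 for back Merkel, 0.51 for paw IFE and 0.62 for back IFE cells. Without paw Merkel library 1 the averaged log2 fold change was 1.71 for Jarid2 (adjusted p = 0.000193) and 2.81 for Cbx7 (adjusted p = 0.00344), and both stayed called. Without back IFE library 2 the averaged values of the 9 members were 1.69 for Jarid2, 2.69 for Cbx7, 1.38 for Rnf2, 0.65 for Ezh1, 0.62 for Bmi1, 0.59 for Cbx2, -0.01 for Suz12, -0.18 for Ezh2 and -0.39 for Eed, and the same 2 genes were called.

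Jarid2, the accessory subunit that helps to place PRC2 on its targets, was higher in Merkel than in IFE cells of both sites. It had 450 and 838 CPM in paw Merkel libraries 1 and 2, against 228 and 178 CPM in paw IFE libraries 1 and 2. In back skin it had 474 and 444 CPM in Merkel libraries, against 140 and 204 CPM in IFE libraries. The 4 Merkel libraries all lay above the 4 IFE libraries, while the sites overlapped within each cell type. Group means were 644 ± 274 CPM in paw Merkel and 203 ± 35.4 CPM in paw IFE cells, and 459 ± 21.1 CPM in back Merkel and 172 ± 45.2 CPM in back IFE cells (SD, n = 2 each). By the edgeR quasi-likelihood test, with p-values adjusted by the Benjamini-Hochberg method over 15151 genes, Jarid2 rose 2.91-fold in Merkel cells averaged over both sites (log2 fold change 1.54, SE 0.26, adjusted p = 0.00163). The call held in each of the 16 alternative fits of that comparison, with adjusted p between 1.9e-07 and 0.00506. Among these fits the log2 fold change was lowest, at 1.28, when paw Merkel library 2 was left out. The cells were measured in bulk, so more cells with the transcript and more RNA per cell cannot be told apart.

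The calls for Jarid2 within a site rested on fewer libraries. In the paw the log2 fold change was 1.66 (SE 0.37, adjusted p = 0.0231), and adjusted p was 0.106 when paw Merkel library 2 was left out (log2 fold change 1.15), and 0.0584 or 0.158 when paw IFE library 1 or 2 was. With the libraries of the paw fitted on their own, adjusted p was 0.0772. In back skin the log2 fold change was 1.42 (SE 0.37, adjusted p = 0.025), and adjusted p was 0.0857 and 0.0826 when Merkel library 1 or 2 of the back was left out, and 0.152 when IFE library 1 of the back was. Without back IFE library 2 Jarid2 stayed past the threshold in back skin (log2 fold change 1.71, adjusted p = 0.0324).

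Cbx7, a chromodomain subunit of canonical PRC1 that binds the histone mark set by PRC2, had the largest ratio of Merkel to IFE levels among the 9 members in this fit. It had 15 and 16.1 CPM in paw Merkel libraries 1 and 2, against 2.04 and 3.95 CPM in paw IFE libraries 1 and 2. The back Merkel libraries had 29.5 and 40.4 CPM, against 4.34 and 3.09 CPM in the back IFE libraries. These values stand on 175 to 414 counts per Merkel library and 50 to 81 counts per IFE library. The order of the means was back Merkel, paw Merkel, back IFE and paw IFE, where the Merkel groups did not overlap each other and the IFE groups did. Averaged over both sites, Cbx7 rose 6.99-fold in Merkel cells (log2 fold change 2.80, SE 0.58, adjusted p = 0.00489), and all 16 alternative fits kept the call, with a highest adjusted p of 0.0327. Without back IFE library 2 the adjusted p was 0.0213.

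Within back skin Cbx7 also passed the test (log2 fold change 3.23, SE 0.83, adjusted p = 0.023), but leaving out any 1 of the 4 back libraries ended that call. Adjusted p was 0.0522 or 0.115 when Merkel library 1 or 2 was the one left out, and 0.097 or 0.136 when IFE library 1 or 2 was. In the paw the log2 fold change was 2.38 (SE 0.80, adjusted p = 0.114), which did not pass in edgeR and did in DESeq2 (adjusted p = 0.00984). The difference between the sites in this contrast was not past the threshold (interaction on the log2 scale -0.86, 95% interval -3.24 to 1.53).

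**Figure D1:**
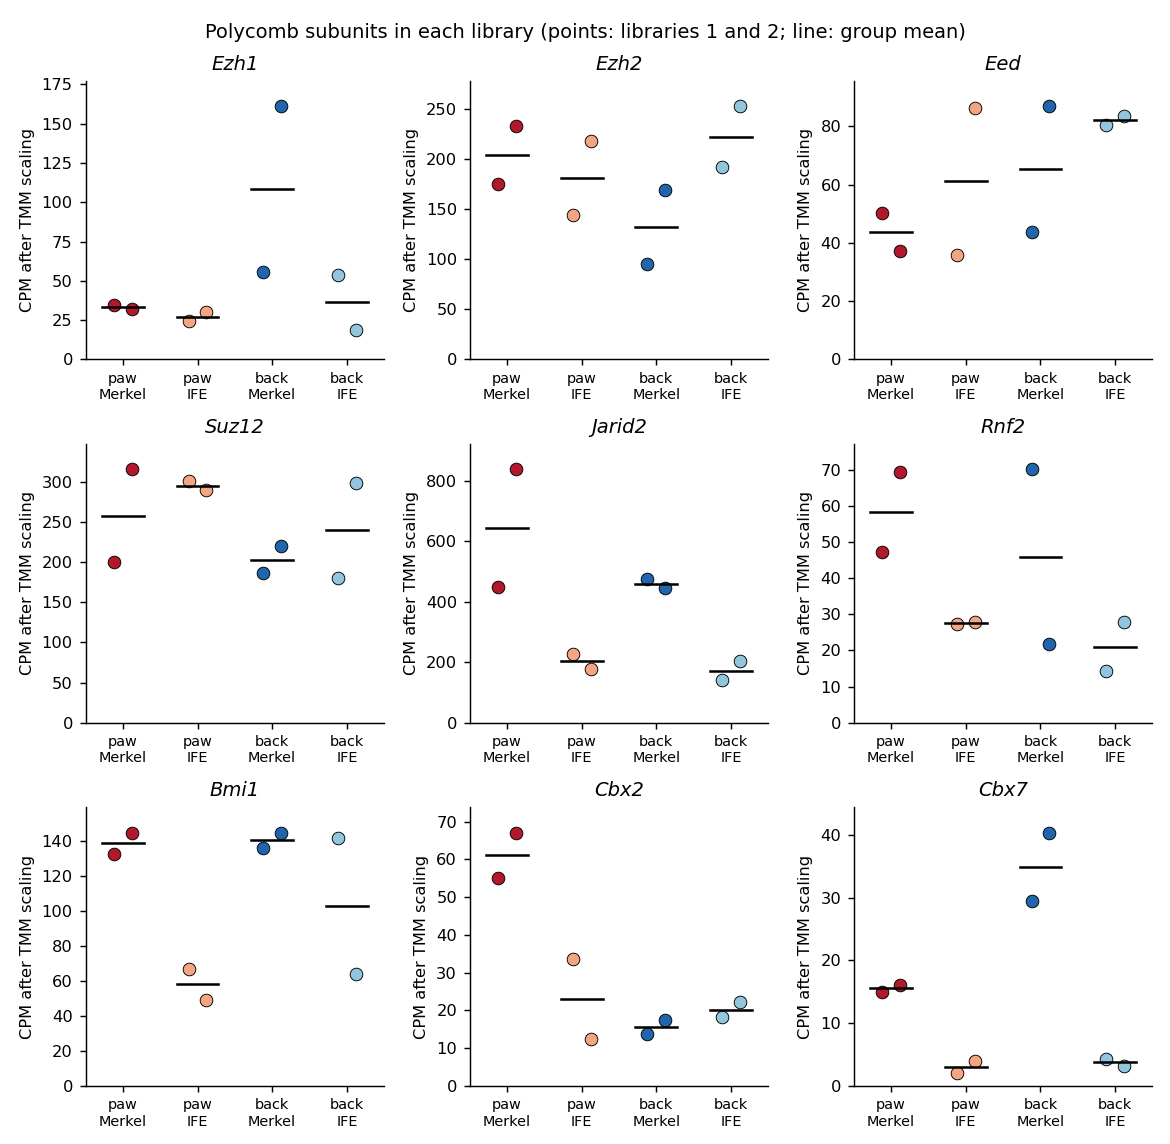
CPM after TMM scaling of the 9 polycomb subunits (vertical axes, each starting at 0) in the 4 groups (horizontal axis); each point is a library and each line the mean of 2. Jarid2 and Cbx7 have all 4 Merkel points above all 4 IFE points, and the points of the other 7 genes overlap between the cell types.

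The promoters of Jarid2, Cbx7 and Ezh2 are shown because Jarid2 and Cbx7 rose in Merkel cells and Ezh2 is the textbook cell cycle gene of the list. The sequences are those of RefSeq on GRCm38.p6, 300 bases each, from 250 bases before to 50 bases after an annotated transcription start. A promoter was matched by symbol for 8 of the 9 genes, all except Cbx2. Jarid2 has 2 annotated starts, and the one shown (chr13:44731021-44731320, + strand) holds the E-box word CAGCTG, in capitals, as does the Cbx7 promoter (chr15:79932597-79932896, - strand), where the cell cycle word TTTGAA, read on the opposite strand as TTCAAA, is also in capitals. The Ezh2 promoter (chr6:47594981-47595280, - strand) holds the E2F word TTGGCGC, in capitals just after the start.
Jarid2: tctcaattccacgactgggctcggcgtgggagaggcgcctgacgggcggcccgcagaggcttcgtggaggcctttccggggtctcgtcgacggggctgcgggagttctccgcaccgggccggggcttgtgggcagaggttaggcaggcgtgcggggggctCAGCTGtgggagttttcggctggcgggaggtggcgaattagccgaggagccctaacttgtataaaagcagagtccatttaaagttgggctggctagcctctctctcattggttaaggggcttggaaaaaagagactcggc
Cbx7: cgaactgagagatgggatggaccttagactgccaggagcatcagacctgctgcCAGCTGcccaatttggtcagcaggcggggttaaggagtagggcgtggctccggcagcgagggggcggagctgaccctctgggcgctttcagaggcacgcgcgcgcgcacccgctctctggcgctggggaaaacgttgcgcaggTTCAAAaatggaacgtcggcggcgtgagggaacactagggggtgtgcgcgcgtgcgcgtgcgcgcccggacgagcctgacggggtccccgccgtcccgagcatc
Ezh2: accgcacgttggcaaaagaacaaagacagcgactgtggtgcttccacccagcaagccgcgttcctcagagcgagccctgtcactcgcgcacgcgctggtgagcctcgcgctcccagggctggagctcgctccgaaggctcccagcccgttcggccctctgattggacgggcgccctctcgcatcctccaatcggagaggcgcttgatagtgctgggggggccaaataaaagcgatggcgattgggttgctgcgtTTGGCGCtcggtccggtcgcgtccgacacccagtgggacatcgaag
CAGCTG reads the same on both strands and was found in 16.3% of the 32851 mouse promoters of this length, and TTGGCGC in 2.45% when both strands were searched. The other E2F words searched were TTCCCGC, which was in 4.6% of all promoters and in that of Suz12, and TTCGCGC, in 1.59% of all and in none of these genes. TTTGAA was in 17.9% of all promoters and in those of Cbx7, Eed and Suz12, and the E-box word CAGATG in 17.2% of all and in none of these genes. The promoters of Ezh1, Rnf2 and Bmi1 and the other start of Jarid2 held none of these words, and no word overlapped another. A word is a run of letters and not evidence of binding.

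Ezh2, Ezh1, Eed and Suz12, the catalytic and structural PRC2 subunits among the members, did not differ between the cell types past the threshold. Rbbp7 and Rbbp4, PRC2 subunits outside the member list, were called lower in back skin. In the average Rbbp7 was called lower too, and the log2 fold change of Rbbp4 ran from -1.04 to -0.59 over 16 alternative fits. Ezh2, the main methyltransferase of dividing cells, had 175 and 233 CPM in paw Merkel libraries, against 144 and 218 CPM in paw IFE libraries. In back skin it had 95.4 and 169 CPM in Merkel libraries, against 192 and 253 CPM in IFE libraries. The paw groups overlapped, while both back Merkel libraries lay below both back IFE libraries. Averaged over both sites the log2 fold change of Ezh2 was -0.29 (95% interval -0.89 to 0.31, adjusted p = 0.486), and within back skin it was -0.75 (95% interval -1.61 to 0.10, adjusted p = 0.218). Without back IFE library 2 the value in back skin was -0.54 (adjusted p = 0.55). None of the alternative fits of these 2 comparisons called Ezh2.

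Suz12, the scaffold of PRC2, had 201 and 316 CPM in paw Merkel libraries, against 301 and 290 CPM in paw IFE libraries. Its back Merkel libraries had 187 and 220 CPM and its back IFE libraries 181 and 299 CPM, and the groups overlapped at both sites. The averaged log2 fold change was -0.22 (95% interval -0.77 to 0.34, adjusted p = 0.578), and Suz12 had the smallest spread of the 9 genes, with a highest library 1.75 times its lowest. Eed, which binds methylated lysine 27, had 50.3 and 37.3 CPM in paw Merkel libraries, against 35.8 and 86.4 CPM in paw IFE libraries. It had 43.6 and 86.9 CPM in back Merkel libraries, against 80.5 and 83.7 CPM in back IFE libraries. Its groups overlapped at both sites, and the averaged log2 fold change was -0.41 (95% interval -1.21 to 0.40, adjusted p = 0.466).

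Ezh1, the methyltransferase that is known to take a larger part in cells that have stopped dividing, had 34.9 and 31.9 CPM in paw Merkel libraries, against 24.3 and 30.2 CPM in paw IFE libraries. In back skin it had 55.5 and 161 CPM in Merkel libraries, against 53.9 and 18.6 CPM in IFE libraries. Back Merkel library 2 held the highest value, and back Merkel library 1 lay close to back IFE library 1. The log2 fold change was 0.93 averaged over both sites (95% interval -0.03 to 1.90, adjusted p = 0.148) and 1.58 in back skin (adjusted p = 0.115). Ezh1 passed the threshold in the averaged comparison without back IFE library 1 (log2 fold change 1.41, adjusted p = 0.0498), and in back skin with DESeq2 and with no filter on low counts. The averaged value was 0.45 with back Merkel library 2 left out, and the value in back skin was 1.00 with back IFE library 2 left out.

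The pair of PRC1 members at its catalytic core was not called either. Rnf2, the RING-type ubiquitin ligase also called RING1B, had 47.3 and 69.4 CPM in paw Merkel libraries, against 27.4 and 27.9 CPM in paw IFE libraries. It had 70.2 and 21.9 CPM in back Merkel libraries, against 14.2 and 27.8 CPM in back IFE libraries, so that the paw groups lay apart and the back groups overlapped. Its averaged log2 fold change was 1.1 (SE 0.45, adjusted p = 0.0976), and it passed with DESeq2 and, by edgeR, without back Merkel library 2.

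Bmi1, the PCGF protein that pairs with RNF2 in canonical PRC1 and is known as a repressor of Cdkn2a, had 133 and 145 CPM in paw Merkel libraries, against 67 and 49.1 CPM in paw IFE libraries. Its back Merkel libraries had 136 and 145 CPM and its back IFE libraries 142 and 63.9 CPM. The 4 Merkel libraries and back IFE library 1 lay within 133 to 145 CPM, and the other IFE libraries within 49.1 to 67 CPM. The averaged log2 fold change was 0.86 (SE 0.30, adjusted p = 0.0577), just outside the threshold. It passed in 7 of 16 alternative fits, among them DESeq2, limma-trend and the fit without back IFE library 1 (adjusted p between 0.0188 and 0.202 over all 16). With back IFE library 2 left out the adjusted p was 0.202, and the value within back skin was -0.01, against 0.45 with it. The value for Bmi1 carries a limit of counting, since 10.1% of the 75-base words of its exons also occur in the gene model Gm5946.

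Cbx2, another CBX subunit of canonical PRC1, had 55.1 and 67.1 CPM in paw Merkel libraries, against 33.5 and 12.5 CPM in paw IFE libraries. In back skin it had 13.8 and 17.5 CPM in Merkel libraries, against 18.2 and 22.1 CPM in IFE libraries. Paw Merkel cells stood above every other group, and back Merkel cells stood below back IFE cells in each library. The log2 fold change was 1.41 in the paw (adjusted p = 0.218), -0.36 in back skin (adjusted p = 0.73) and 0.52 averaged (adjusted p = 0.416). None of these passed the threshold, nor did the interaction (1.77 on the log2 scale, 95% interval -0.12 to 3.67, adjusted p = 0.584). Without back IFE library 2 the value in back skin was -0.22 and the interaction 1.63.

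Over the 9 genes, the comparison of paw Merkel with paw IFE cells called 1 (Jarid2, higher), against 6.21% of all genes tested, 4.28% higher and 1.93% lower. The comparison of back Merkel with back IFE cells called 2 of 9 (Jarid2 and Cbx7, higher), against 15.4% of all genes, 7.99% higher and 7.45% lower. Averaged over both sites 2 of 9 were called, the same pair, against 23.9% of all genes, 12.5% higher and 11.3% lower. The share of members called in the averaged comparison, 22.2%, was near that of all genes, so the count is no result about these subunits. In 2 of the 9 all Merkel libraries lay above all IFE libraries, against 13.7% of all genes, and in 0 of the 9 all lay below, against 14.0%. The median log2 fold change of the 9 genes was 1.08 in the paw, 0.45 in back skin and 0.86 averaged, against -0.04, -0.06 and -0.09 over all genes tested.

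Markers of other cell types moved with the cell type contrast. The summed level of 8 melanocyte markers lay between 127 and 215 CPM in Merkel libraries and between 8.56 and 16.8 CPM in IFE libraries, and most of it was Kit, with 103 to 194 CPM in Merkel libraries, while Tyrp1 was at 0 there. Kit was the 1 melanocyte marker called, of 5 that passed the filter. For 8 fibroblast markers the sum lay between 87.3 and 200 CPM in Merkel and between 527 and 1580 CPM in IFE libraries, with Twist2 at 0 in all 8 libraries. Of the 5 that passed the filter 4 fell in the average, and Col1a2, the other, rose in back skin, with 165 and 74 CPM in back Merkel libraries, against 21.7 and 28.9 CPM in back IFE libraries (log2 fold change 2.24, adjusted p = 0.0155). For 8 immune and Langerhans cell markers it lay between 0.645 and 8.87 CPM in Merkel and between 33 and 1100 CPM in IFE libraries, highest in back IFE library 1, and 6 of 8 fell. No Schwann cell or endothelial marker was called. The part of these markers in the values of Jarid2 and Cbx7 was not tested.

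**Figure D2:**
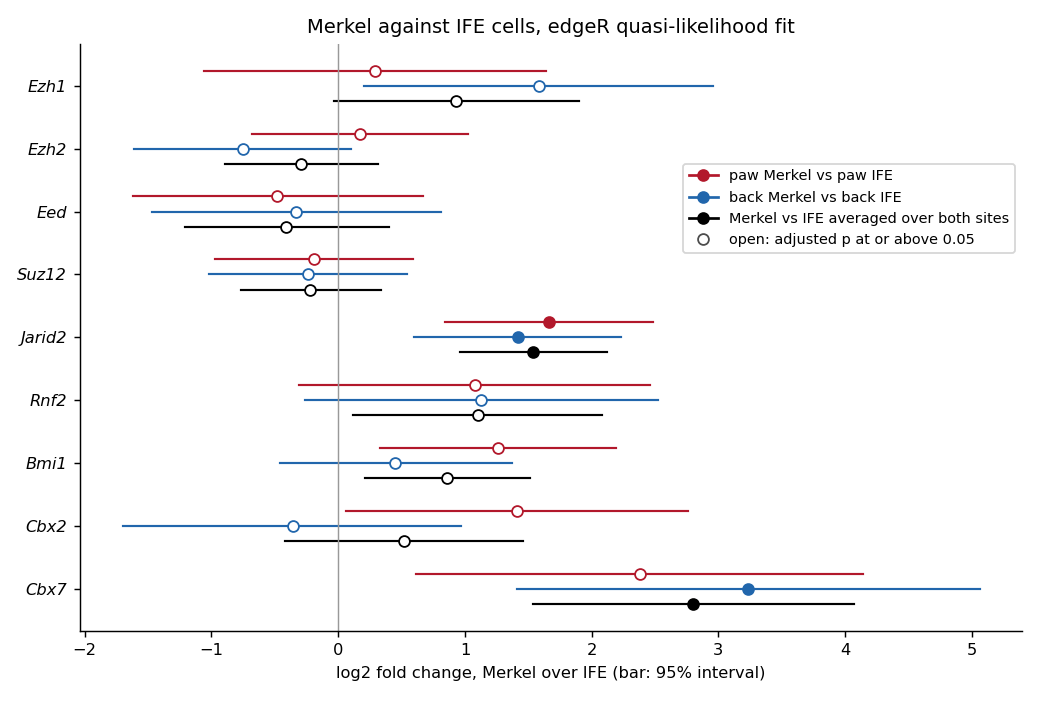
Log2 fold changes of Merkel over IFE cells (horizontal axis) for the 9 subunits (rows), in the paw, in back skin and averaged over both sites; bars are 95% intervals and filled points have an adjusted p below 0.05. Jarid2 is filled in all 3 comparisons and Cbx7 in back skin and in the average, and the intervals of Ezh2, Eed and Suz12 include 0 throughout.

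Between the sites, none of the 9 genes was called by edgeR within Merkel cells, within IFE cells or in the interaction of cell type and site, and DESeq2 called none of them either. Paw Merkel cells were set against back Merkel cells with 0.185% of all genes called. There Cbx2 had a log2 fold change of 1.97 (95% interval 0.59 to 3.35, adjusted p = 0.306) and Ezh1 of -1.69 (95% interval -3.08 to -0.31, adjusted p = 0.385), and these were the 2 members with an unadjusted p below 0.05. Cbx7 was lower in both paw Merkel libraries than in both back Merkel libraries, with a log2 fold change of -1.17 that did not pass the threshold (95% interval -2.86 to 0.52). Ezh2 was higher in both paw Merkel libraries than in both back Merkel libraries (log2 fold change 0.63, 95% interval -0.23 to 1.48, adjusted p = 0.61). In the same contrast all 20 cell cycle markers had positive log2 fold changes (median 1.95), and 3 of them rose. All 8 epidermal markers also had positive values (median 1.01), of which edgeR called none and 6 had an unadjusted p below 0.05. The part of these markers in the values of Ezh2, Cbx2, Ezh1 and Cbx7 was not tested.

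In the comparison of paw IFE with back IFE cells 0% of all genes were called, and in the interaction 0%. Unadjusted p was below 0.05 for 643 and 1365 genes in these, of which 0 of the 9 members in either, and DESeq2 called 84 and 273 genes. The libraries of the 9 members overlapped between paw IFE and back IFE cells throughout, with log2 fold changes from -0.82 for Bmi1 to 0.39 for Rnf2. Without back IFE library 2 that of Bmi1 was -1.29 and that of Rnf2 0.96, and neither passed.

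Levels of different genes were compared on the FPKM scale, which is per transcript length. Jarid2 was the most abundant of the 9 members in all 4 Merkel libraries, with 80.6 and 170 FPKM in paw Merkel and 94.4 and 93.5 FPKM in back Merkel libraries. It ranked below Ezh2 and Suz12 in all 4 IFE libraries, with 39 and 29.2 FPKM in paw IFE and 23.8 and 34.5 FPKM in back IFE libraries. Ezh2 or Suz12 ranked first in each IFE library. The ratio of Jarid2 to Ezh2 FPKM was 1.42 and 2.85 in paw Merkel libraries, against 0.798 and 0.446 in paw IFE libraries. It was 3.25 and 2.21 in back Merkel libraries, against 0.418 and 0.449 in back IFE libraries. Transcripts of the recruiting subunit thus outnumbered those of the enzyme per length in the 4 Merkel libraries and not in the 4 IFE libraries.

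Among the PRC2 accessory genes (Jarid2, Aebp2, Phf1, Mtf2, Phf19, Epop and Lcor), Jarid2 held 63.1% and 76.2% of the summed FPKM in paw Merkel libraries, against 34.1% and 30.1% in paw IFE libraries. Its share was 63.3% and 55.2% in back Merkel libraries, against 29.2% and 35.3% in back IFE libraries. The shares of the cell types did not overlap, and Aebp2, which stimulates PRC2 on nucleosomes, was the highest accessory gene in paw IFE library 2. Between the methyltransferases, the ratio of Ezh2 to Ezh1 FPKM was 7.28 and 11 in paw Merkel libraries, against 9.45 and 9.74 in paw IFE libraries. It was 2.15 and 0.879 in back Merkel libraries, against 5.22 and 17 in back IFE libraries. The back Merkel libraries had the 2 lowest ratios, and back Merkel library 2 was the 1 library with more Ezh1 than Ezh2 per length.

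The pair of CBX members differed in which was more abundant per length. Cbx2 had 20.6 and 32.9 FPKM in paw Merkel libraries, against 11.8 and 4.91 FPKM in paw IFE libraries, and 5.89 and 8.21 FPKM in back Merkel libraries, against 6.91 and 8.45 FPKM in back IFE libraries. Cbx7 had 6.28 and 10.8 FPKM in paw Merkel libraries, against 0.781 and 2.04 FPKM in paw IFE libraries, and 15.1 and 25.1 FPKM in back Merkel libraries, against 1.57 and 1.46 FPKM in back IFE libraries. Cbx7 exceeded Cbx2 in both back Merkel libraries, and Cbx2 exceeded Cbx7 in the other 6 libraries.

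Bmi1 held 23.8% and 24.7% of the summed FPKM of the PCGF genes in paw Merkel libraries, against 12.3% and 13.7% in paw IFE libraries. It held 23.7% and 37.2% in back Merkel libraries, against 27.3% and 12.7% in back IFE libraries, where the groups overlapped. Rnf2 held less than Ring1, the other catalytic subunit of PRC1, in 7 of the 8 libraries. The exception was paw Merkel library 2, in which Rnf2 held 75.2% and Ring1 had 3.23 CPM, against 42.1 CPM in paw Merkel library 1.

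**Figure D3:**
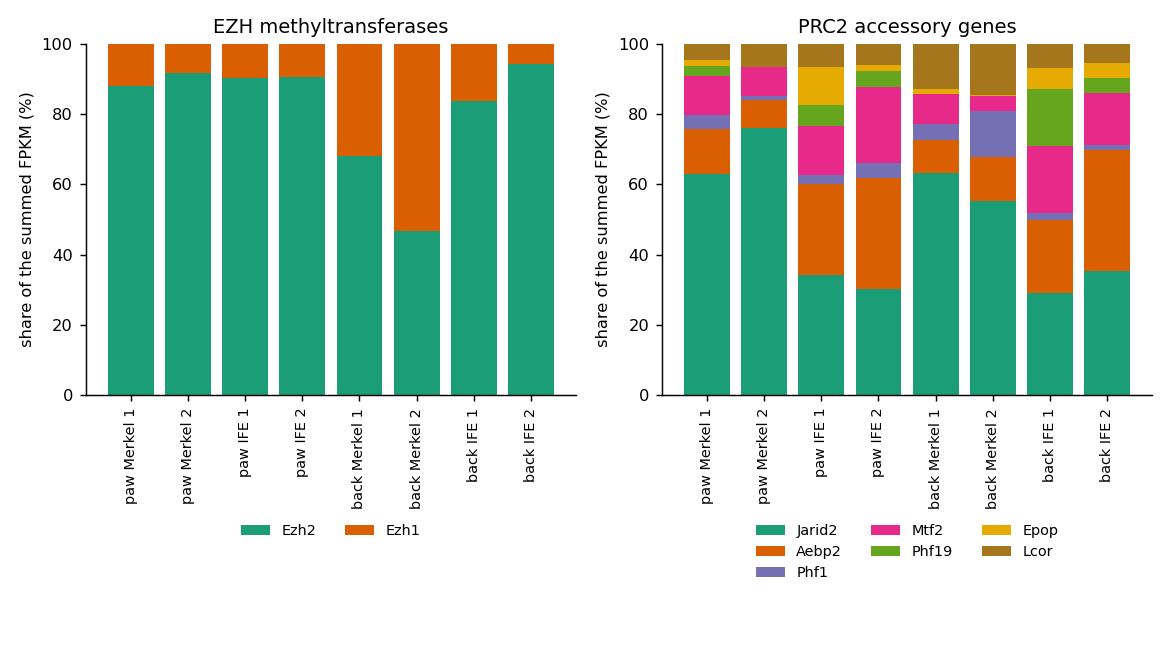
Share of the summed FPKM (vertical axes, percent) held by each gene of the EZH and PRC2 accessory families in each of the 8 libraries (horizontal axes). Ezh1 is largest in the back Merkel libraries, and Jarid2 holds over 55% of the accessory genes in the Merkel libraries.

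Of 41 other polycomb genes, all of which passed the filter, 11 were called in the averaged comparison, 5 higher and 6 lower in Merkel cells. That is 26.8% against the 23.9% of all genes, and the median log2 fold change of the 41 was 0.03. The lists within the 41 differed. Of the 8 PRC2 genes 1 was called higher and 4 lower (62.5%, median log2 fold change -0.92). Of the 27 PRC1 genes 2 were called higher and 2 lower (14.8%, median 0.07). Of the 6 PR-DUB and demethylase genes 2 were called higher and 0 lower (33.3%, median 0.74). Rybp, a subunit of variant PRC1, had 92.2 and 109 CPM in paw Merkel libraries, against 29.6 and 42.8 CPM in paw IFE libraries, and 53.1 and 99.6 CPM in back Merkel libraries, against 27.3 and 31.3 CPM in back IFE libraries. All Merkel libraries lay above all IFE libraries, and the log2 fold change was 1.43 (SE 0.33, adjusted p = 0.00893), kept in all 16 alternative fits. Asxl2, a subunit of the complex that removes ubiquitin from histone H2A, had a log2 fold change of 0.84 (SE 0.23, adjusted p = 0.0198). Lcor, a gene listed here with the accessory subunits of PRC2, had one of 1.06 (SE 0.32, adjusted p = 0.0322). Asxl2 lost the call in 4 of 8 fits that left out 1 library: paw IFE library 1 (adjusted p = 0.0767) or 2 (0.0658), back Merkel library 2 (0.0994) or back IFE library 1 (0.0566). Lcor kept it in 2 of 8 such fits, those that left out paw Merkel library 1 or back Merkel library 1, and its adjusted p in the other 6 was 0.0720 to 0.117.

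Asxl3, a relative of Asxl2, was called higher on uneven values. It had 15.1 and 2.77 CPM in paw Merkel libraries, against 3.1 and 0.938 CPM in paw IFE libraries, and 4.26 and 48.2 CPM in back Merkel libraries, against 0.163 and 0 CPM in back IFE libraries. In back skin this was 549 counts in Merkel and 3 counts in IFE libraries, a ratio of 349 with a counting interval of 119 to 1700 that covers counting error only. Without back Merkel library 2, which held most of these counts, the averaged adjusted p was 0.0702 and the log2 fold change 3.92, against 5.24 with it. The call was also lost with limma-trend on log2(FPKM + 1), where the value was 0.99 (adjusted p = 0.139), and on log2(FPKM + 0.1), where it was 2.65 (adjusted p = 0.067), and it held in the other 13 of 16 alternative fits.

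Among the 6 that fell, Rbbp7, a histone-binding subunit that PRC2 shares with other complexes, had 58.8 and 88.3 CPM in paw Merkel libraries, against 156 and 147 CPM in paw IFE libraries. It had 36.6 and 78.3 CPM in back Merkel libraries, against 136 and 177 CPM in back IFE libraries, and the cell types did not overlap. Its log2 fold change was -1.24 (SE 0.31, adjusted p = 0.0128), kept in all 16 alternative fits. Scml2, an accessory protein of PRC1, had 1.97 and 1.48 CPM in paw Merkel libraries, against 8.76 and 9.38 CPM in paw IFE libraries. Its back Merkel libraries held 2 counts together, against 758 in the back IFE libraries, a ratio of 0.00504 (counting interval 0.000609 to 0.0183), and it was called in all 16 alternative fits of the averaged comparison.

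Phf19, which links PRC2 to methylated lysine 36, had 10.9 and 0 CPM in paw Merkel libraries, against 20.4 and 12.6 CPM in paw IFE libraries. In the back it had 5 counts in Merkel libraries, against 1097 counts in IFE libraries, a ratio of 0.0087 (counting interval 0.00282 to 0.0204). Its averaged adjusted p was 0.0348, and it was 0.0958 when back Merkel library 2 was left out and 0.0595 when back IFE library 1 was. Aebp2 had a log2 fold change of -0.95 (SE 0.27, adjusted p = 0.0273), lost in 4 of 8 fits that left out 1 library. These left out paw IFE library 1 (adjusted p = 0.0524) or 2 (0.0766), back Merkel library 1 (0.0909) or back IFE library 2 (0.143).

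Within the paw edgeR called 0 of the 41 genes, against 6.21% of all genes tested, and 9 of the 41 had an unadjusted p below 0.05. DESeq2 called 2 there, Rybp and Asxl1, and edgeR called 4 without paw Merkel library 1. In back skin 8 of the 41 were called, Asxl3, Lcor and Fbrs higher and Scml2, Skp1a, Rbbp4, Rbbp7 and Phf19 lower. Of the 8 PRC2 genes 1 was called higher and 3 lower there (50%, median log2 fold change -1.15). The share was 11.1% for the 27 PRC1 genes and 16.7% for the 6 PR-DUB and demethylase genes. Over all 41 the count was 8, which is 19.5% against the 15.4% of all genes, and the median log2 fold change was 0.31. The count was 2 without back IFE library 1, 3 when any 1 of the other back libraries or paw IFE library 2 was left out, and 4 when paw IFE library 1 was left out. It was 13 with DESeq2. Skp1a, a subunit shared with other ubiquitin ligases, and Rbbp4, the close relative of Rbbp7, had log2 fold changes of -1.20 and -1.37 in back skin (adjusted p = 0.0328 and 0.0395). Fbrs, a subunit of variant PRC1, had one of 1.76 (adjusted p = 0.041).

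**Figure D4:**
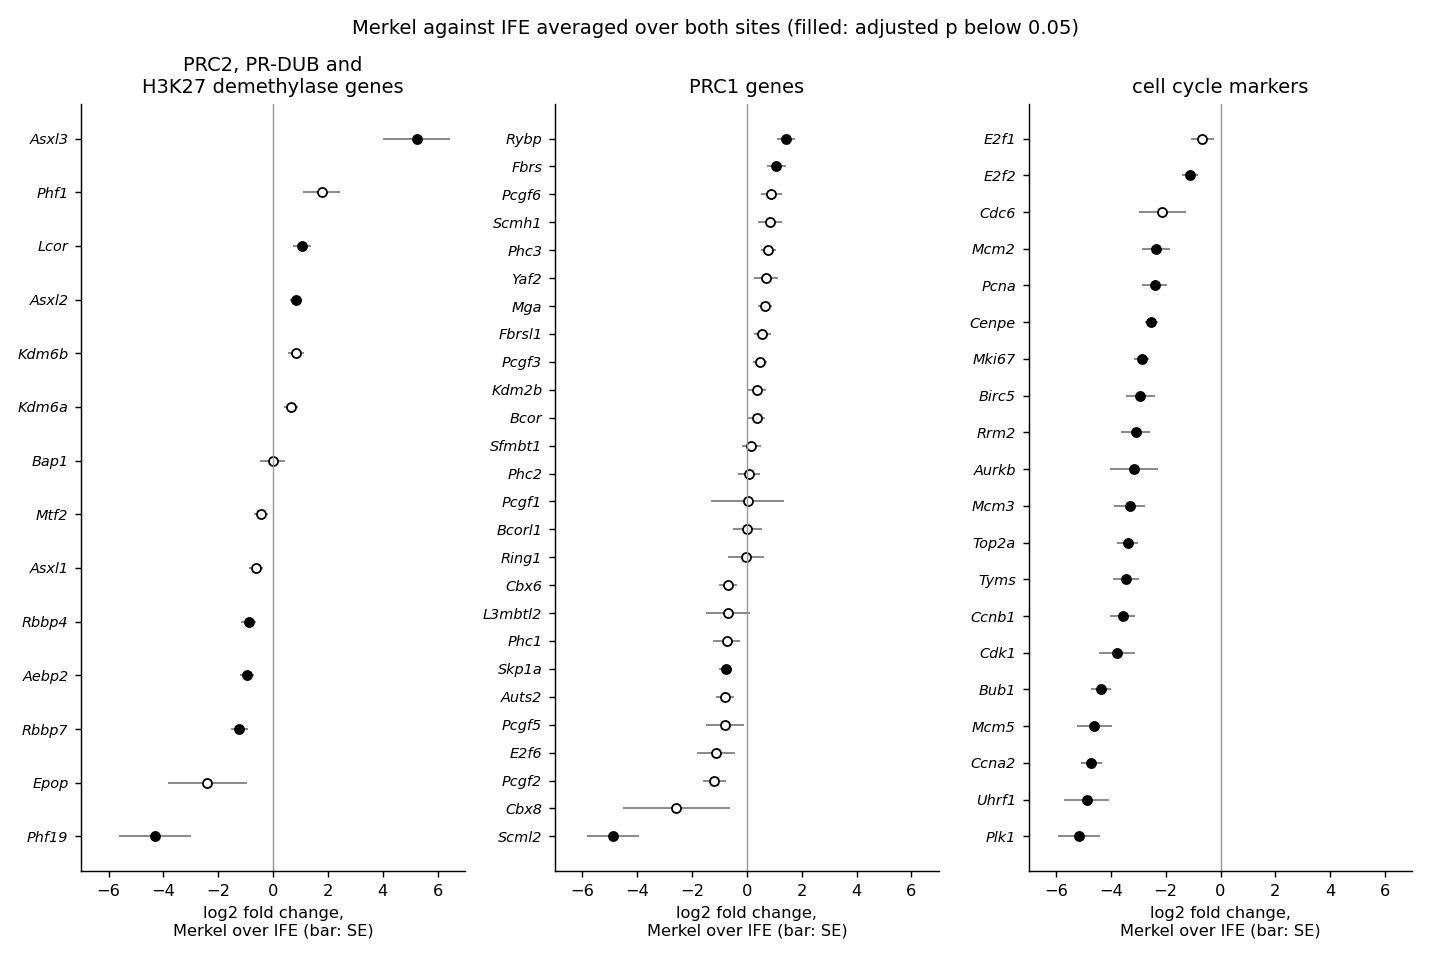
Log2 fold change of Merkel over IFE cells averaged over both sites (horizontal axes, bars are the SE) for 14 PRC2, PR-DUB and demethylase genes, 26 PRC1 genes and 20 cell cycle markers (rows, sorted by value); filled points have an adjusted p below 0.05. The polycomb genes scatter on both sides of 0, with 6 of the 8 PRC2 genes below it, while all 20 cell cycle markers lie below 0.

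Ezh2 is a known target of the E2F factors in dividing cells, and its level was set beside a list of 20 cell cycle genes. The summed level of these genes was 1450 and 1330 CPM in paw Merkel libraries, against 4890 and 4350 CPM in paw IFE libraries, and 263 and 378 CPM in back Merkel libraries, against 4870 and 6590 CPM in back IFE libraries. Averaged over both sites 18 of the 20 fell in Merkel cells and none rose, with a median log2 fold change of -3.24. Of all genes tested 11.3% were called lower in that comparison. In back skin 17 fell, against 7.45% of all genes, and the share of all genes called lower in the paw was 1.93%. In the paw 4 fell, 17 had an unadjusted p below 0.05, and the count ranged from 2 to 14 over the alternatives (14 with DESeq2, 13 with paw Merkel library 1 left out, 2 with paw IFE library 1 left out). Mki67, a marker of proliferation, had 543 and 634 CPM in paw Merkel libraries, against 1860 and 1640 CPM in paw IFE libraries, and 95.5 and 154 CPM in back Merkel libraries, against 1700 and 2850 CPM in back IFE libraries.

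The averaged log2 fold changes were -2.88 for Mki67 (SE 0.27, adjusted p = 2.54e-05), -3.39 for the topoisomerase Top2a (SE 0.39, adjusted p = 0.000126), -4.71 for the cyclin Ccna2 (SE 0.38, adjusted p = 7.92e-06) and -2.35 for the replication helicase subunit Mcm2 (SE 0.51, adjusted p = 0.00631). The corresponding value for Ezh2, -0.29 with an interval of -0.89 to 0.31, was smaller in size than each of these, a difference that was not tested. The ratio of Mki67 to Ezh2 FPKM was 0.872 and 1.11 in paw Merkel libraries, against 3.34 and 2.25 in paw IFE libraries. It was 0.318 and 0.4 in back Merkel libraries, against 2.57 and 3.11 in back IFE libraries, so that the cell types did not overlap at either site. Of 8 genes of cell cycle exit, Rb1, the retinoblastoma protein that holds E2F factors in check, rose (averaged log2 fold change 2.25, SE 0.25, adjusted p = 9.07e-05) and the inhibitor Cdkn1c fell (-3.54, SE 0.64, adjusted p = 0.00232), and the other 6 were not called. The share called in this list, 25%, was near the 23.9% of all genes, and its median log2 fold change was -0.15. That count is no result about cell cycle exit.

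**Figure D5:**
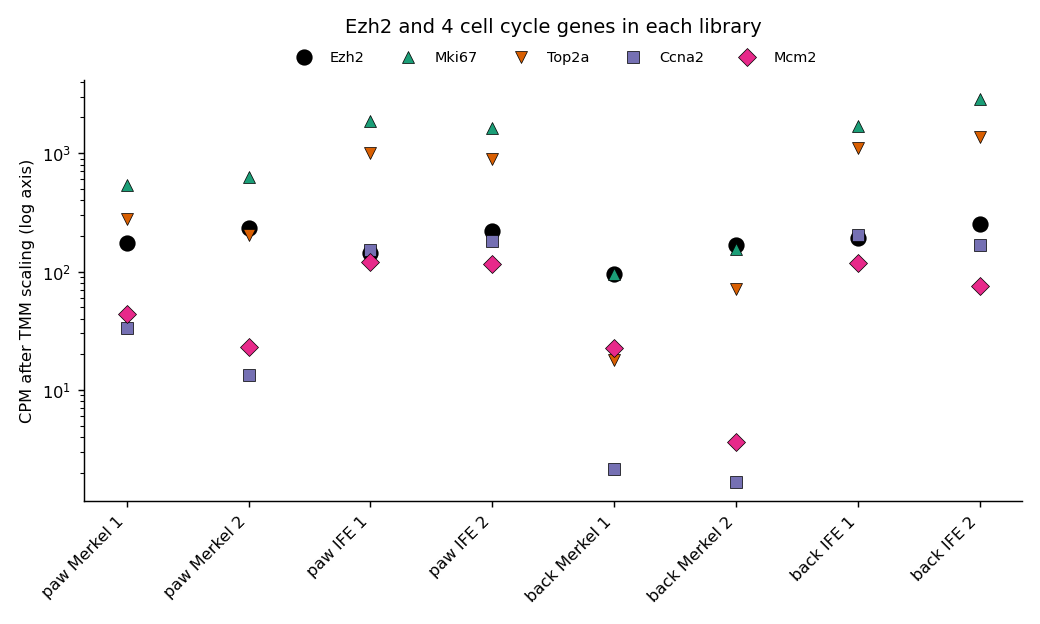
CPM after TMM scaling (vertical log axis) of Ezh2 and of the cell cycle genes Mki67, Top2a, Ccna2 and Mcm2 in the 8 libraries (horizontal axis). Ezh2 stays between 95.4 and 253 CPM, while Mki67 lies at 95.5 to 634 CPM in Merkel and 1640 to 2850 CPM in IFE libraries.

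Genes that PRC2 is known to hold silent in epidermis did not move as 1 group. Of 5 such genes, Atoh1, which the sort itself selected, Sox2 and Isl1 rose in Merkel cells, with averaged log2 fold changes of 10.24, 9.94 and 10.28. Cdkn2a, the cell cycle inhibitor locus that PRC1 and PRC2 are known to silence in dividing cells, had 0 counts in all 8 libraries. Its neighbour Cdkn2b had 0 to 1.07 CPM in Merkel and 0.0543 to 1.04 CPM in IFE libraries and was not called. Of 18 developmental regulators that are silent polycomb targets in most tissues, 4 passed the filter on low counts and 8 had no count in any library. Lhx3, a LIM homeobox gene, was the 1 that was called, with 64.4 and 126 CPM in paw Merkel libraries, against 0.0407 and 0 CPM in paw IFE libraries, and 57.2 and 36.9 CPM in back Merkel libraries, against 0.0543 and 0.153 CPM in back IFE libraries.

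For each member, the genes whose log2 CPM ran most like it over the 8 libraries were listed among 10305 genes with a mean of at least 5 CPM. These correlations are descriptions, since the libraries share cell type, site and depth, and with 8 points high values arise among so many genes. For Jarid2 they were Tmco3 (Pearson r 0.989), Rab3ip (0.985) and Fzd3 (0.984), and for Cbx7 Scamp1 (0.998), Rasgef1b (0.997) and Tmem30a (0.994). The nearest genes of Ezh2 were Qser1 (0.939), Apeh (0.93) and Dpp3 (0.929), the lowest leading value among the 9 members. Bmi1 ran with Arpc5 (0.987), Smarca1 (0.975) and Cdh11 (0.974), and Cbx2 with Armc10 (0.993), Srsf4 (0.945) and Tmpo (0.935). The list for Ezh1 was Sgcb (0.962), Adgrb2 (0.955) and Rbm10 (0.952), for Rnf2 Prkce (0.976) and Tpp2 (0.969), for Suz12 Hif1a (0.981), Nup85 (0.971) and Zfp106 (0.962), and for Eed Akr1e1 (0.95), D3Ertd751e (0.949) and Fcf1 (0.923).

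In the GENCODE vM21 annotation of GRCm38, Jarid2 spans chr13:44729474-44921643 on the + strand and Cbx7 chr15:79915807-79971119 on the - strand, and all 9 genes are annotated as protein coding. No exon of Jarid2, Ezh1, Cbx2 or Bmi1 overlaps another gene. A gene on the opposite strand overlaps 6.82% of the exonic bases of Eed (E230029C05Rik), 3.83% of those of Rnf2 (Trmt1l), 3.6% of those of Suz12 (Gm26563), 2.61% of those of Ezh2 (Gm26625) and 1.54% of those of Cbx7 (Apobec3). The strand setting of the counting is not given in the sources used here, so reads from these stretches cannot be told apart.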

How the data were processed

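The authors deposited gene counts per library (whole numbers, not normalized) and a table of FPKM values, fragments scaled to transcript length and depth. Per the submitters' processing notes, TopHat2 2.0.13, Cufflinks 2.2.1, featureCounts of Subread 1.4.6 and DESeq2 1.6.3 were used on mm10. Per the labels' protocols, libraries were paired-end and made from amplified RNA, so counting intervals cover counting error only.

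Counts were analysed in R 4.3.3 with edgeR 4.0.16: filterByExpr by group (15151 genes left), TMM scaling, 1 mean per group over 8 libraries (4 residual degrees of freedom) and the quasi-likelihood F test. The Benjamini-Hochberg adjustment ran over all tested genes, with a threshold of 0.05. The 6 comparisons were Merkel against IFE in the paw, in back skin and averaged, paw against back in each cell type, and the interaction. DESeq2 1.42.0 and limma 3.58.1 were alternatives, limma on log2 CPM and on log2(FPKM + 1).

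All 9 members are named. Other polycomb genes are named up to 4 per direction by adjusted p, with 4 preset cell cycle genes and the 3 genes most like each member, of which some are not reported here. Asxl1, Ring1, Lhx3, Rb1, Cdkn1c, Kit, Krt1, Krt10, Col1a2, Tyrp1 and Twist2 were named after their values were seen. So were Phc2 and L3mbtl2, which were picked by their opposite directions at the sites. Members and lists were chosen with earlier results of these data known. Sequences of proteins were not used here.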

Additional observations from a re-analysis of the deposited data

Results flagged for a closer look

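Merkel and IFE libraries differed in opposite directions at the sites, in every library, for 1 member and 2 of the other polycomb genes. The share of all tested genes with this pattern was not counted, so the count is no result about these subunits. Cbx2 was higher in both paw Merkel than in both paw IFE libraries and lower in both back Merkel than in both back IFE libraries. The difference of the differences was 1.77 on the log2 scale (SE 0.86, adjusted p = 0.584 by the edgeR quasi-likelihood test of the interaction). Phc2, a subunit of canonical PRC1, had the same pattern, with 35.7 and 33 CPM in paw Merkel libraries, against 19.8 and 21.1 CPM in paw IFE libraries, and 13.8 and 16.5 CPM in back Merkel libraries, against 23.9 and 22.2 CPM in back IFE libraries. Its interaction was 1.36 (SE 0.83, adjusted p = 0.682). L3mbtl2, a subunit of a variant PRC1, was the other way round, lower in paw Merkel and higher in back Merkel libraries than in the IFE libraries of the site, with an interaction of -2.12 (SE 1.62, adjusted p = 0.757). None of the 3 passed the threshold. With 2 libraries in each group, no library could be tested for standing apart within its group.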

How the results depend on the processing

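Of the alternative values, 1621 kept their direction and side of the threshold or, for counts and ratios, stayed close to the main value. Another 112 lost a call, 26 gained one, 51 counts or ratios moved and 48 reversed. These totals leave out the numbers of genes and of members called. No reversed value was past the threshold, and the cause was not tested for any change listed here. Genes called in paw Merkel against paw IFE cells numbered 941, against 2227 by DESeq2, 1920 with no filter and 537 with the paw libraries alone, and members called 1, against 2 by DESeq2 and 0 with the paw libraries alone. In back skin DESeq2 called 3963 genes, against 2338, and in the average it called 4 members, against 2. Paw against back Merkel cells gave 28 genes, against 512 by DESeq2, 17 with total counts, 452 with no filter, 5 with the groups compared alone, and 13 and 12 on log2(FPKM + 1) and log2(FPKM + 0.1). Paw against back IFE cells gave 0, against 84 by DESeq2, 120 with no filter, and 2 and 1 on the FPKM scales. The interaction gave 0, against 273 by DESeq2, 305 with no filter, 1 with RLE scaling and 2 on log2(FPKM + 1). Replicate numbers did not pair the libraries (correlations of deviations between -0.04 and 0.08), and a replicate block gave 3 members in the average, 1 gene between IFE sites, 4 in the interaction, and interactions of 0.06 for Eed and -0.03 for Suz12.

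Reversed log2 values were, for Suz12, 0.26 in back skin and 0.05 averaged on both FPKM scales, and in the interaction -0.03 with limma-trend on CPM and -0.41 and -0.42 on the FPKM scales. For Eed the interaction was 0.06 with limma-trend on CPM and 0.24 and 0.25 on the FPKM scales, and for Rnf2 0.07 with limma-trend on CPM. Bmi1 was 0.01 between Merkel sites with total counts, and Cbx2 0 between IFE sites on log2(FPKM + 0.1).

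Leaving out 1 library at a time gave 561 to 2369 genes and 0 to 1 members in the paw, 1307 to 3376 genes and 0 to 2 members in back skin, 2 to 4 members in the average, 1 to 177 genes between Merkel sites, 0 to 67 between IFE sites and 0 to 41 in the interaction. Log2 fold changes in the paw ran from -0.09 to 0.5 for Ezh2, -0.98 to 0.29 for Eed, -0.56 to 0.08 for Suz12, -0.07 to 0.96 for Lcor and -0.28 to 0.86 for Fbrs. In back skin they ran from -0.92 to 0.06 for Eed, -0.56 to 0.17 for Suz12 and -0.01 to 1.14 for Bmi1. Between Merkel sites they ran from -0.95 to 0.01 for Eed, -0.02 to 0.64 for Suz12, -0.02 to 0.88 for Jarid2, -0.26 to 1.44 for Rnf2 and -0.08 to 0.05 for Bmi1. Between IFE sites they ran from -0.98 to 0.55 for Ezh1, -1.2 to 0.07 for Eed, -0.02 to 0.71 for Suz12, 0 to 0.54 for Jarid2, -0.01 to 0.96 for Rnf2, -0.68 to 0.73 for Cbx2 and -0.86 to 0.09 for Cbx7. In the interaction they ran from -0.64 to 0.63 for Eed, -0.36 to 0.37 for Suz12, -0.27 to 0.63 for Jarid2 and -0.66 to 1.04 for Rnf2.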
